A study of Mus musculus with 34 samples.

Results

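The 10 genes described here are Nlrp2, Nlrp4a, Nlrp4b, Nlrp4c, Nlrp4e, Nlrp4f, Nlrp9a, Nlrp9b, Nlrp9c and Nlrp14, oocyte NLRP genes other than Nlrp5 of the subcortical maternal complex. They were chosen by gene symbol and are not every such gene: Nlrp4g, for one, is not among them. All 10 were found among the 49686 genes of the zygote and late 2-cell tables and the 51734 of the blastocyst table. Each library was a single mouse embryo that had been injected as an early zygote with mRNA for wild-type CHK1 (WT) or for the mutant CHK1 R442Q. CHK1 restrains mitotic entry when DNA is damaged, and the question, as the study's title frames it, is how the transcriptome of preimplantation embryos responds to a perturbed checkpoint. The WT groups held 5 zygotes, 4 late 2-cell embryos and 7 blastocysts, and the R442Q groups held 6, 5 and 7. Zygotes and late 2-cell embryos carry no treatment in the labels, whereas all 14 blastocysts, WT included, had grown in medium with a CHK1 inhibitor at 30 nM. Both genotypes are therefore overexpression by injected mRNA in embryos that keep their own Chek1 gene, and uninjected embryos were not analysed here. Strain, age of the females and litters are not in the labels, so p-values measure the spread between single embryos.

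NLRP proteins carry a pyrin domain, a nucleotide-binding NACHT domain and leucine-rich repeats. The best known of them assemble inflammasomes in immune cells, but a rodent-expanded branch is transcribed in growing oocytes, and its transcripts are stored in the egg and cleared after fertilisation as the embryo turns to its own genome. Mouse embryos whose mothers lack Nlrp2 or Nlrp14 develop poorly, and NLRP2 and NLRP4F have both been described in association with the subcortical maternal complex, so "outside the complex" holds for its classical core (Nlrp5, Ooep, Tle6, Khdc3, Padi6 and Zbed3) only. The Nlrp4 and Nlrp9 genes are families of close copies. Nlrp9b has also been studied in the intestine, as a sensor of viral RNA.

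On GRCm38, 9 of the 10 genes lie on chromosome 7. Nlrp9c (26322473 to 26403700, minus strand), Nlrp4a (26435113 to 26476142) and Nlrp9a (26535023 to 26575615) are neighbours, Nlrp2 (5298547 to 5351035, minus strand) and Nlrp4c (6045161 to 6105150) lie near one end of the chromosome, and Nlrp4b (10687789 to 10730168), Nlrp9b (19991465 to 20073306), Nlrp4e (23301192 to 23362277) and Nlrp14 (107166990 to 107198102) are apart from them. Nlrp4f is on chromosome 13 (65177111 to 65205977, minus strand). All 10 are annotated as protein coding.

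RefSeq promoters (GRCm38.p6) were found for 9 of the 10 genes. The 120 bases before the start are shown for the 5 genes in which copies with like sequence can be set beside their expression: the neighbouring pair Nlrp9a and Nlrp9c, and Nlrp4a, Nlrp4b and Nlrp4c, of which the first 2 fell after the zygote stage and the last did not. They span chr7:26534903-26535022 for Nlrp9a (plus strand), chr7:26403701-26403820 for Nlrp9c (minus strand), chr7:26435494-26435613 for Nlrp4a (plus strand, the downstream of 2 listed starts), chr7:10687673-10687792 for Nlrp4b (plus strand, the upstream of 2) and chr7:6045041-6045160 for Nlrp4c (plus strand). Capitals mark CCAAT on either strand, so that a match on the other strand reads ATTGG.
Nlrp9a: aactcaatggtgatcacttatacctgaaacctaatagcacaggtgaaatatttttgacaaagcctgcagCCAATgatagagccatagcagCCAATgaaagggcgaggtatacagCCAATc
Nlrp9c: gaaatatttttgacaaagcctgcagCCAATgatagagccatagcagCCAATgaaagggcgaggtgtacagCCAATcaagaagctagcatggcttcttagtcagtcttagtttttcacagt
Nlrp4a: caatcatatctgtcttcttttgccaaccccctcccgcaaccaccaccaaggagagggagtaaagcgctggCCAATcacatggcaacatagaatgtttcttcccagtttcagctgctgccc
Nlrp4b: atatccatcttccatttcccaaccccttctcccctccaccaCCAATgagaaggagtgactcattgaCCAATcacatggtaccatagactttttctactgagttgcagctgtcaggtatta
Nlrp4c: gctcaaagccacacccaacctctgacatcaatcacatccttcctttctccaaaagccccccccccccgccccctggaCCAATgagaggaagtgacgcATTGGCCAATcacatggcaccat
Between the 250-base upstream windows of Nlrp9a and Nlrp9c, 195 aligned bases were identical and 8 were mismatched (96.1% identity), with 94 gap positions because the listed starts are offset. Both windows held 3 CCAAT matches. The Nlrp4b window was 77.8% identical to that of Nlrp4a at its downstream start and 79.7% to that of Nlrp4c, and that of Nlrp4c was 76.1% identical to the same window of Nlrp4a. CCAAT occurred 3 times upstream of Nlrp4c, 2 times upstream of Nlrp4b and once upstream of the downstream start of Nlrp4a. The window before the upstream start of Nlrp4a held 0 and was 63.8% identical to that of Nlrp4b and 53.5% to that of Nlrp4c. Apart from Nlrp9a with Nlrp9c and from pairs among Nlrp4a, Nlrp4b and Nlrp4c, the windows of different genes were 55.5% to 67.1% identical. Among 32851 mouse promoters of the same length, 33.8% held at least 1 match, 10.1% at least 2 and 2.79% at least 3. The windows of Nlrp2 and Nlrp4e held 1 match each and those of Nlrp9b and Nlrp4f held 0.

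Zygote libraries held 7183632 to 11296522 estimated counts and late 2-cell libraries 5727956 to 8916343, so 3 counts corresponded to at most 0.4176 and 0.5237 CPM (counts scaled to the library's total). The CPM printed here lack the trimmed mean of M values (TMM) factors that the tests apply. In the model that fits both stages together, these were 1 to 1.03 in WT and 0.888 to 0.94 in R442Q zygotes. The tests within a stage used factors computed on that stage alone, which are not given here. Intervals and floors of this kind cover counting error only, because copies made by amplification were not collapsed to molecules. Blastocysts were deposited as FPKM (fragments per length of transcript and library size), with a relative depth recovered from low values of 0.874 to 1.11 of the mean. Where totals are known, this recovery was off by up to 2.78% in zygotes and 18.3% in late 2-cell embryos. It therefore does not show that the blastocyst libraries were of even depth. Chek1, whose table row does not separate injected from endogenous or WT from mutant transcripts, was at 4593 to 8653 CPM in WT and 5597 to 7171 CPM in R442Q zygotes. The stage labels were checked with fixed markers. The 7 maternal markers summed to 3666 to 5062 CPM in zygotes and 392 to 1270 CPM in late 2-cell embryos, and the 8 trophectoderm markers were all detected in blastocysts. The 7 late 2-cell markers found in the tables summed to between 734 and 3520 CPM in 8 of the 9 late 2-cell embryos, but to 146 CPM in WT late 2-cell embryo 2, a level that zygotes also had (76.5 to 327 CPM). Calls that moved on leaving out that embryo are given with and without it, as are some of the estimates that moved.

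In WT zygotes the 10 genes together made up 0.623% of all counts (6234 ± 720 CPM, SD, n = 5), and their levels per length spread over a wide range. Nlrp4f was the highest at 606 ± 97.5 FPKM, which ranked it 151 among the genes of the table. It was followed by Nlrp14 at 494 ± 78.4 FPKM and Nlrp9b at 352 ± 64.0 FPKM. Each of these 3 was above the next gene in 5 of 5 embryos, although the ranges over embryos overlapped. Nlrp9c (281 ± 18.9 FPKM) and Nlrp4a (230 ± 42.7 FPKM) came next. Nlrp4b (136 ± 22.3 FPKM), Nlrp9a (132 ± 14.8 FPKM) and Nlrp4e (120 ± 20.1 FPKM) did not differ beyond their spread. Nlrp2 was lower at 29.8 ± 1.87 FPKM, and Nlrp4c was the lowest at 10.4 ± 1.23 FPKM, both with ranges apart from their neighbours in the order. In R442Q zygotes Nlrp4f again led (585 ± 29.9 FPKM, n = 6), with Nlrp9c (251 ± 29.8 FPKM), Nlrp14 (214 ± 82.2 FPKM), Nlrp9b (205 ± 19.8 FPKM) and Nlrp4a (192 ± 22.9 FPKM) overlapping behind it.

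Sequence shared with other genes limits some of these levels. Nlrp4b and Nlrp14 shared no 50-base stretch with another annotated gene. Nlrp4e shared 36.7% of its stretches with others, mostly with Gm16443, Gm8486 and Gm8685, so its level is uncertain, and none of its counts in the 20 early embryos was a whole number. In WT zygotes these 3 relatives had mean levels of 0, 4.72 and 0.349 CPM, against 284 CPM for Nlrp4e. The share was 10.7% for Nlrp4c (7.0% with Nlrp4e), 7.8% for Nlrp9b and at most 6.1% for the other 5 genes. Nlrp4f shares 3.9% with Nlrp4g, which was at 273 ± 32.4 CPM in WT zygotes (n = 5) and 13 ± 6.64 CPM in WT late 2-cell embryos (n = 4) and at 0 in all blastocysts. Nlrp2 overlaps Gm18757 and Gm5065 on the opposite strand, and the use of strand is not given in the sources used here, so its reads and theirs cannot be told apart where they overlap. Nlrp4b, Nlrp4e and Nlrp9b each overlap a gene on their own strand, and Nlrp9b also the small gene n-R5s152 on the other strand.

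From the zygote to the late 2-cell stage, 9 of the 10 genes fell in WT embryos and the same 9 fell in R442Q embryos. Over all genes tested, 25% fell in WT and 29.8% in R442Q embryos (edgeR quasi-likelihood test, Benjamini-Hochberg adjusted p under 0.05). The 9 genes had no late 2-cell embryo as high as any zygote in WT embryos, as 24.6% of all genes did, and 7 of them had none in R442Q embryos, as 21.5% of all genes did. All 9 were called in both genotypes without WT late 2-cell embryo 2 as well. The median log2 change of the 10 genes was -3.22 in WT embryos, where that of all genes was 0.34, and -2.75 in R442Q embryos, where that of all genes was 0.22. With the embryos scaled by relative log expression in place of the trimmed mean of M values, the median of all genes in R442Q embryos was 0.34, a shift of 0.12. CPM gives each transcript's part of the RNA in a library, so a change in a transcript and a change in the embryo's other RNA cannot be told apart.

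Nlrp9b fell furthest in WT embryos. Its WT zygotes had 700, 767, 801, 741 and 650 CPM, and its WT late 2-cell embryos 14.2, 9.58, 15.4 and 16.5 CPM. The stages did not overlap, and the late 2-cell mean was 1.9% of the zygote mean. The log2 change was -5.79 ± 0.53 (SE, edgeR adjusted p = 3.08e-09). In R442Q embryos it went from a mean of 483 CPM to 69.0, 15.2, 13.9, 60 and 8.08 CPM, which left 6.88% (log2 -4.01 ± 0.44, edgeR adjusted p = 3.04e-08). R442Q late 2-cell embryos 1 and 4 stood above the other 3, and in this genotype the estimates of Nlrp4a and Nlrp4f were lower. That of Nlrp4e was close (-4.06 ± 0.46), and its order with Nlrp9b rests on single embryos. Without R442Q late 2-cell embryo 1, Nlrp9b was at -4.51 and Nlrp4e at -4.09.

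Nlrp4a, Nlrp4b and Nlrp4f also kept under 5% of their level in WT embryos. Nlrp4a fell by 4.98 ± 0.35 on the log2 scale to 26.6 ± 6.22 CPM (n = 4), with 3.31% left, and by 4.76 ± 0.31 in R442Q embryos, with 4.16% left. Nlrp4f, the most abundant of the 10 in zygotes, fell by 4.50 ± 0.31 and 4.63 ± 0.28, with 4.66% left in WT and 4.58% in R442Q embryos. WT late 2-cell embryo 3, at 151 CPM against 48.4 to 68.5 CPM in the other 3, held the WT value up, and without it the WT change of Nlrp4f was -5.14. For Nlrp4b the late 2-cell values were 14.6, 4.06, 20.2 and 16.2 CPM in WT embryos (3.48% left) and 54.5, 18.7, 21.1, 18.9 and 14 CPM in R442Q embryos (11.4% left). Its log2 changes were -4.93 ± 0.45 and -3.30 ± 0.37. The lowest of these values, 4.06 CPM, came from WT late 2-cell embryo 2, and without that embryo the WT change was -4.79.

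Nlrp4e, Nlrp9a, Nlrp14, Nlrp9c and Nlrp2 fell less far in WT embryos. Nlrp4e kept 9.94% of its zygote level in WT embryos (log2 -3.43 ± 0.49) and 6.99% in R442Q embryos (-4.06 ± 0.46). Without WT late 2-cell embryo 3 (62 CPM, the others 7.14 to 30 CPM) its WT change was -4.33, so the order of the genotypes rests on that embryo. Nlrp9a kept 13.2% (log2 -3 ± 0.36) and 24.6% (-2.20 ± 0.31), and without the same embryo its WT change was -3.62. Nlrp14 kept 14.4% in WT embryos (log2 -2.89 ± 0.32, edgeR adjusted p = 5.54e-08) and 51.8% in R442Q embryos (-1.14 ± 0.27, edgeR adjusted p = 0.000728). Nlrp9c kept 24.1% and 46.4%, and had the highest mean of the 10 at the late 2-cell stage, with 92.4 ± 23.2 FPKM in WT (n = 4) and 160 ± 35.1 FPKM in R442Q embryos (n = 5). Nlrp14 was next at 69.6 ± 31.7 and 111 ± 27.0 FPKM. Their ranges overlapped, and Nlrp9c was above Nlrp14 in 3 of 4 WT and 4 of 5 R442Q embryos. Summed over all genes, FPKM came to 712234 to 742246 in WT and 814376 to 976830 in R442Q late 2-cell embryos, so at this stage FPKM serves to order genes within a group and CPM to compare genotypes. Nlrp2 kept 29.4% in WT embryos (log2 -1.85 ± 0.37, edgeR adjusted p = 0.000181) and 60.9% in R442Q embryos (-0.87 ± 0.33, edgeR adjusted p = 0.0219). The latter call was lost on leaving out R442Q zygote 3 (edgeR adjusted p = 0.101), R442Q zygote 6 (0.0518) or R442Q late 2-cell embryo 2 (0.051), 3 (0.0926) or 5 (0.0586).

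Nlrp4c was the exception. WT zygotes had 28.9, 39.4, 37.8, 34.3 and 33.0 CPM and WT late 2-cell embryos 23.0, 50.7, 46.0 and 34.9 CPM. The late 2-cell embryos lay on both sides of the zygotes, and the log2 change was 0.09 ± 0.28 (edgeR adjusted p = 0.797). In R442Q embryos the zygotes ranged from 25.1 to 40.7 CPM around a median of 28.7, and the late 2-cell embryos had 25.0, 16.9, 39.7, 30.8 and 22.8 CPM (log2 -0.35 ± 0.26, edgeR adjusted p = 0.239). Without WT late 2-cell embryo 2 the WT estimate was -0.25. Nlrp4c has the upstream likeness to Nlrp4b and to the downstream start of Nlrp4a shown above, and Nlrp4a and Nlrp4b kept 3.31% and 3.48% of their WT level where Nlrp4c kept 111%.

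**Figure D1:**
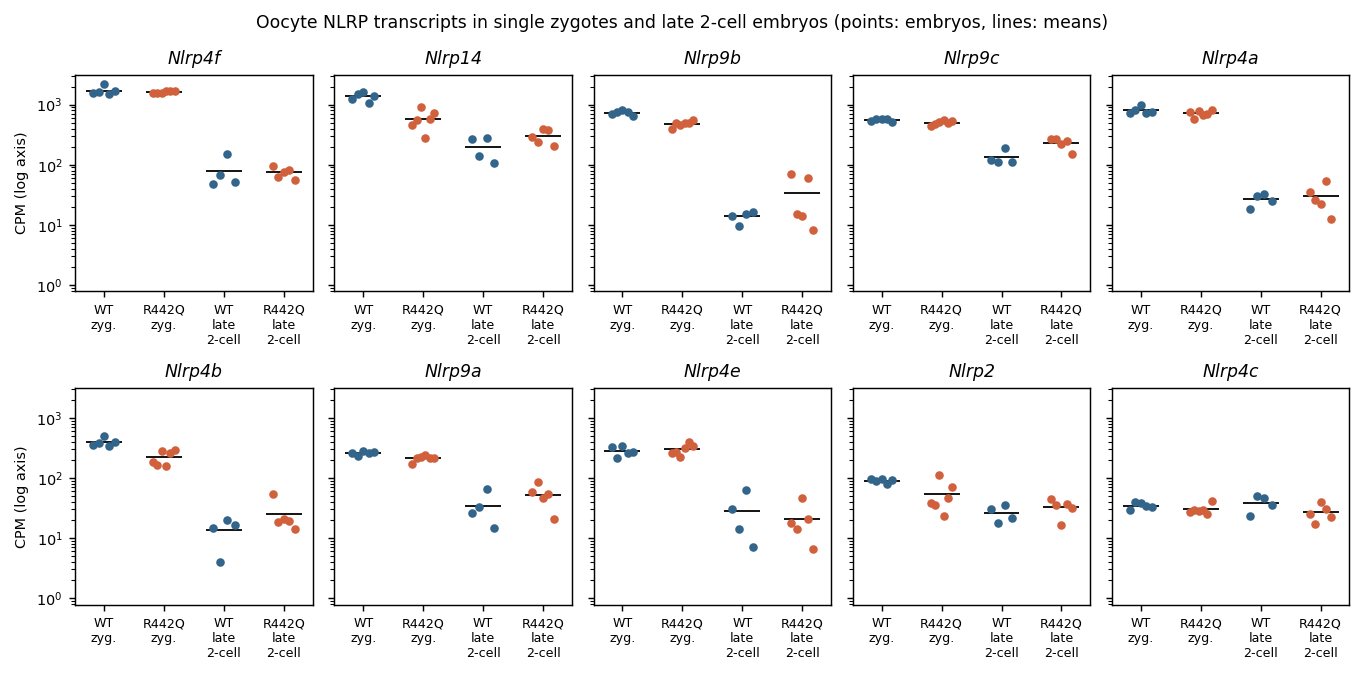
CPM of each gene in each embryo on a log axis, with WT in blue, R442Q in orange, 1 point per embryo and a line at each group's mean. In WT embryos 9 genes drop without overlap from zygotes to late 2-cell embryos, while Nlrp4c stays between 23.0 and 50.7 CPM.

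**Figure D2:**
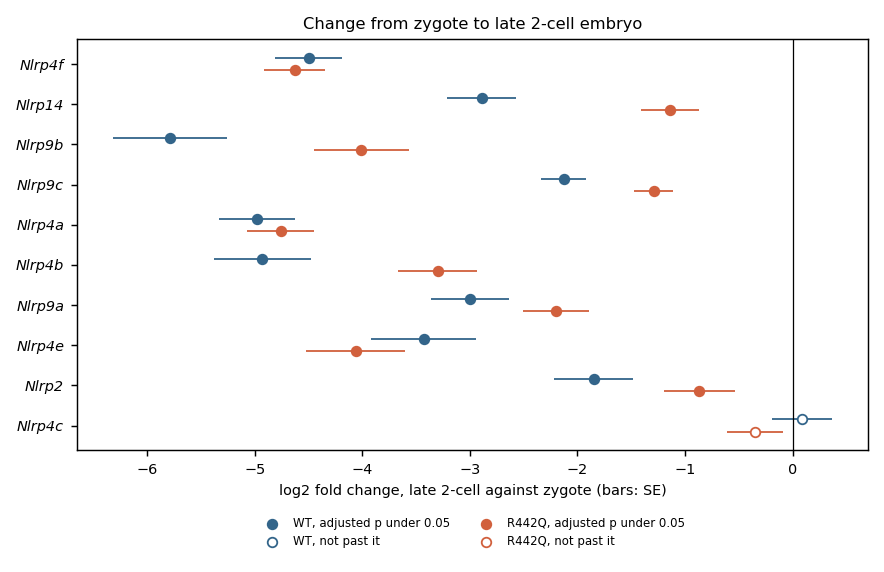
Log2 change from zygotes to late 2-cell embryos for each gene in WT (blue) and R442Q (orange) embryos, with bars of 1 SE and filled points for an edgeR adjusted p under 0.05. The R442Q points of Nlrp14 (-1.14) and Nlrp9b (-4.01) lie nearer to 0 than their WT points (-2.89 and -5.79), and the points of Nlrp4f lie together.

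Related genes from fixed lists give the setting. All 6 genes of the maternal complex core fell in both genotypes, with medians of -2.89 in WT and -2.43 in R442Q embryos. Examples in WT embryos are Ooep, an RNA-binding-fold subunit of the complex (log2 -5.74 ± 0.30), and Nlrp5, its NLRP subunit (-2.93 ± 0.27). Without WT late 2-cell embryo 2 the counts that rose or fell were the same for this list and for those that follow. Of 20 other oocyte transcripts, such as those of the zona pellucida and secreted growth factors, 17 fell and 0 rose in WT embryos, and 13 fell and 3 rose in R442Q embryos. Among 8 oocyte transcription factor genes, 6 fell and 2 rose in WT embryos, and 3 fell and 2 rose in R442Q embryos. Nobox, a homeobox factor needed for oocyte gene expression, fell in both (-4.23 ± 0.26 and -3.72 ± 0.23). Of the 17 NLR genes of other branches, 11 were tested, of which 3 fell in each genotype while 6 rose in WT and 5 in R442Q embryos. These shares can be read against the 36.2% of all genes that rose in WT and the 35.3% that rose in R442Q embryos. Ciita, the activator of MHC class II genes, was among those that rose in both. It was at 0 to 0.135 CPM in WT zygotes, at or below the floor, and had means of 36.5 CPM in WT and 8.14 CPM in R442Q late 2-cell embryos. Only 2 of the 8 inflammasome effector genes passed the filter on low counts. Of these Nek7, a kinase that NLRP3 binds, fell in both genotypes (-1.60 ± 0.36 and -1.76 ± 0.33), and Pycard, the adaptor ASC, rose in WT embryos, from a mean of 0.318 CPM near the floor to 4.3 CPM, and was called without WT late 2-cell embryo 2 too (edgeR adjusted p = 0.0269). In R442Q embryos Pycard was at 1.54 and 1.39 CPM (-0.39 ± 1.19, edgeR adjusted p = 0.788), but the difference between the genotypes did not pass the threshold (-3.99 ± 1.83, edgeR adjusted p = 0.177). The sum of the 17 other NLR genes was 85.6 to 137 CPM in WT zygotes, and Nlrp1a and Nlrp1b were at 0 in all 11 zygotes.

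In zygotes, 3 of the 10 genes were lower in R442Q than in WT embryos and 0 were higher. Over all genes tested 6.92% were lower and 6.3% higher. The 3 genes, Nlrp14, Nlrp4b and Nlrp9b, were also the only ones of the 10 whose embryos did not overlap between the genotypes, a separation that 6.84% of all genes showed in this direction. The 10 genes together made up 4738 ± 423 CPM in R442Q zygotes (n = 6), with 4262 to 5296 CPM against 5595 to 7442 CPM in WT zygotes. That separation of the sums depends on the scaling. As an alternative chosen after seeing the data, CPM were divided by the TMM factors of the model that fits both stages together. Those are not the factors of the zygote test. The sums were then 4799 to 5752 in R442Q and 5595 to 7391 in WT zygotes, which overlap. Nlrp14, Nlrp4b and Nlrp9b still did not overlap on that scale, where 3.74% of all genes were lower without overlap.

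Nlrp14 differed most. WT zygotes had 1262, 1498, 1646, 1080 and 1383 CPM, and R442Q zygotes ranged from 274 to 902 CPM with a median of 566. All 6 R442Q zygotes lay below all 5 WT zygotes. The log2 difference was -1.12 ± 0.20, or 2.18-fold lower (edgeR adjusted p = 0.00205), and it passed the threshold without any 1 of the 11 embryos (-1.27 to -0.97).

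Nlrp4b stood at 353, 380, 501, 337 and 403 CPM in WT zygotes and at 161 to 294 CPM, median 220, in R442Q zygotes, 1.63-fold lower (log2 -0.70 ± 0.16, edgeR adjusted p = 0.00827). Nlrp9b went from the 650 to 801 CPM given above to 393 to 549 CPM, median 494, 1.39-fold lower (log2 -0.48 ± 0.09, edgeR adjusted p = 0.00299). Both calls held without any 1 embryo. In the model that fits both stages together the estimates stayed near (-0.67 and -0.45), but neither passed (edgeR adjusted p = 0.407 and 0.753), while Nlrp14 did (0.0289). Over all genes that model called 73 of 16199 lower in R442Q zygotes.

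Nlrp2 stood at 94.6, 88.4, 94.5, 80.8 and 92.8 CPM in WT zygotes. In R442Q zygotes it ranged from 23.3 to 112 CPM with a median of 42.9. Of the R442Q zygotes 5 lay below every WT zygote, and R442Q zygote 3 was above them all. The log2 difference was -0.62 ± 0.27 (edgeR adjusted p = 0.152), and -0.94 without that embryo (0.00807). With no filter on low counts it was -0.64 (0.0162). Gm5065, which overlaps Nlrp2 on the other strand, was at 74.9 to 147 CPM in WT and 49.2 to 100 CPM in R442Q zygotes.

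The other 6 genes had estimates from -0.16 to 0.20 with standard errors of 0.09 to 0.16. Nlrp4f was at 1709 CPM in WT and 1630 CPM in R442Q zygotes, with a log2 difference of 0.05 ± 0.10. Divided by the TMM factors of the model that fits both stages together, its means were 1688 and 1787 CPM. Its estimate in that model was 0.08. Nlrp9c, a close copy of Nlrp9b, was at 552 and 501 CPM (-0.02 ± 0.09). Nlrp4a (-0.04 ± 0.11), Nlrp9a (-0.16 ± 0.10), Nlrp4c (-0.09 ± 0.15) and Nlrp4e (0.20 ± 0.16) also did not pass. A p that misses the threshold does not show that these levels are equal.

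Single genes of other lists also differed between genotypes in zygotes, where 6.3% of all genes were higher and 6.92% lower in R442Q embryos. Of the maternal complex core, Ooep (-0.82 ± 0.12) and Tle6 (-0.91 ± 0.27), a co-repressor-like subunit, were lower and Zbed3 (0.41 ± 0.08) was higher. Of the 20 oocyte transcripts 5 were lower, Zp3 of the egg coat among them (-1.35 ± 0.17), and 5 were higher, among them Dppa3 (0.44 ± 0.08), which protects maternal DNA methylation. Of the 7 late 2-cell markers tested 5 were higher, and 3 of the 7 maternal markers, which are all among the 20 oocyte transcripts, were lower. Of the 7 oocyte transcription factor genes tested 0 were called. The part of these differences in the lower NLRP levels was not tested. Of the 9 cumulus cell markers 3 were tested and 0 called, with a median log2 difference of -0.09. Their sum, 39.3 to 46.6 CPM in WT and 27.3 to 36.6 CPM in R442Q zygotes, was mostly Cyp19a1 (means of 39.8 and 27.4 CPM), while Amh was at 0 in all zygotes and Ptx3 and Inha were at 0 in WT zygotes.

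At the late 2-cell stage 0 of the 10 genes passed the threshold between genotypes in edgeR, where 1.22% of all genes were higher and 2.95% lower in R442Q embryos. These shares rest on single embryos. In place of 580 of 13883 genes, 142 of 14690 were called without WT embryo 2 (23 higher, 119 lower), and 351, 283 and 209 without WT embryo 1, 3 and 4. Without R442Q embryo 2 or 3 the counts were 372 and 891. In edgeR 2910 genes had an unadjusted p under 0.05. DESeq2 called 1 of the 10, and 1664 of the 13883 genes tested (736 higher, 928 lower). Of the 10 estimates 8 were above 0, with a median of 0.58 where that of all genes was 0.07. Nlrp9c stood at 121, 112, 187 and 113 CPM in WT and 263, 271, 225, 253 and 150 CPM in R442Q embryos. All but R442Q embryo 5 lay above every WT embryo. The log2 difference was 0.90 ± 0.30 (edgeR adjusted p = 0.1). DESeq2 (adjusted p = 0.0306) and the edgeR fit of both stages (adjusted p = 0.00547) called it, and with the trend of length and GC content removed the edgeR adjusted p was 0.419. At this stage the fit of both stages called 2507 of 16199 genes (944 higher, 1563 lower).

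For Nlrp9b the difference was 1.39 ± 0.63 (edgeR adjusted p = 0.225), with the 3 lower R442Q embryos at 8.08 to 15.2 CPM within or below the WT range of 9.58 to 16.5 CPM. The fit of both stages gave 1.33 (edgeR adjusted p = 0.0427), and leaving out R442Q embryo 1 gave 0.88. Nlrp14 was at 272, 142, 275 and 105 CPM in WT and 293, 236, 393, 380 and 208 CPM in R442Q embryos (log2 0.71 ± 0.34, edgeR adjusted p = 0.247). Nlrp4b (1.02 ± 0.57), Nlrp9a (0.72 ± 0.47), Nlrp2 (0.45 ± 0.40), Nlrp4a (0.26 ± 0.45), Nlrp4f (0.01 ± 0.37), Nlrp4e (-0.36 ± 0.61) and Nlrp4c (-0.45 ± 0.38) had estimates within 2 SE of 0. Without R442Q embryo 1 the estimate of Nlrp4b was 0.47. Leaving out WT embryo 2 let none of the 10 pass the threshold. Among the estimates that moved without it were those of Nlrp4b (0.71), Nlrp4e (-0.58) and Nlrp4c (-0.28). The late 2-cell markers summed to 146 to 2063 CPM in WT and 1032 to 3520 CPM in R442Q embryos, and 0 of the 7 tested were called. Among the maternal complex core, Ooep was higher in R442Q embryos (2.29 ± 0.35, edgeR adjusted p = 0.00649), and without WT embryo 2 too (2.22 ± 0.40, edgeR adjusted p = 0.0324).

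**Figure D3:**
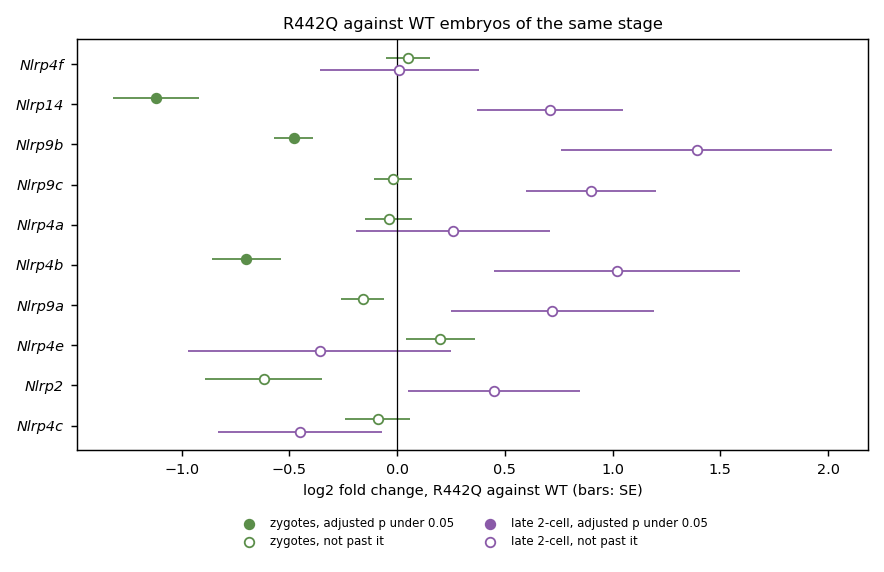
Log2 difference between R442Q and WT embryos for each gene in zygotes (green) and late 2-cell embryos (purple), with bars of 1 SE and filled points for an edgeR adjusted p under 0.05. In zygotes only Nlrp14 (-1.12), Nlrp4b (-0.70) and Nlrp9b (-0.48) are filled, and at the late 2-cell stage no point is.

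A model of all 20 early embryos tested the genotype effect at the late 2-cell stage against that in zygotes. For 4 of the 10 genes the effect was higher at the late 2-cell stage than in zygotes, and for 0 it was lower. Over all genes tested 3.07% were higher and 7.05% lower. The median of the 10 genes was 0.82 and that of all genes -0.16. Relative log expression scaling moved the latter by 0.16 to -0.01 and the split of all called genes from 497 higher and 1142 lower to 707 higher and 917 lower, and it called the same 4 of the 10. This comparison uses the embryos of both genotype comparisons and of both stage comparisons above, and adds no separate evidence to them.

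The 4 genes were Nlrp14 (1.75 ± 0.39, edgeR adjusted p = 0.00615), Nlrp4b (1.64 ± 0.51, edgeR adjusted p = 0.0413), Nlrp9b (1.78 ± 0.57, edgeR adjusted p = 0.0493) and Nlrp9c (0.84 ± 0.27, edgeR adjusted p = 0.0444). Nlrp14 was called on leaving out each of the 20 embryos in turn, Nlrp9c in 14, Nlrp4b in 12 and Nlrp9b in 4 of the 20. Without WT late 2-cell embryo 2, whose late 2-cell markers were low, Nlrp14 alone was called (1.78, edgeR adjusted p = 0.0127), and the other 3 kept estimates of 1.49, 1.82 and 0.92 with adjusted p of 0.0595, 0.0806 and 0.0514. Nlrp14 was also the only one called without WT zygote 1, 3, 4 or 5 or WT late 2-cell embryo 4, and Nlrp14 and Nlrp9c were called without WT or R442Q late 2-cell embryo 1. A call was gained for Nlrp2 without R442Q zygote 3 (1.47, edgeR adjusted p = 0.041) or R442Q late 2-cell embryo 3 (1.34, 0.0497), and for Nlrp9a without WT late 2-cell embryo 3 (1.39, 0.0342). With no filter on low counts Nlrp9c did not pass (edgeR adjusted p = 0.0939). In the same test 2 of the 6 maternal complex genes were higher, Ooep (3.04 ± 0.33) and Nlrp5 (1.06 ± 0.33), as were 6 of the 20 oocyte transcripts. Without WT late 2-cell embryo 2 Nlrp5 did not pass (1.09 ± 0.35, edgeR adjusted p = 0.0609).

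In blastocysts Nlrp4c had the highest mean of the 10 genes. It was above Nlrp4f, the next, in 6 of 7 WT and 7 of 7 R442Q embryos, with overlapping ranges in WT embryos, where embryo 7 had 5.32 FPKM of Nlrp4f and 1.47 FPKM of Nlrp4c. It was above 0 in 14 of 14 embryos, at 0.02 to 11.8 FPKM (median 4.32) in WT and 2.05 to 23.1 FPKM (median 6.48) in R442Q embryos. The genotypes overlapped, and the difference was 0.81 ± 0.54 on the log2(FPKM + 1) scale (limma adjusted p = 0.806), where 0.00885% of all genes tested were called. It was the only one of the 10 that reached 1 FPKM in at least 7 embryos, and so the only one tested. Nlrp4f was above 0 in 4 of 7 WT and 4 of 7 R442Q embryos, at up to 5.32 and 1.72 FPKM. Nlrp9b was above 0 in 2 embryos of each genotype (up to 0.51 and 1.05 FPKM), Nlrp4e in 2 WT and 3 R442Q embryos (up to 0.24 and 0.28 FPKM), and Nlrp14 in 1 of each (0.18 and 1.61 FPKM).

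Nlrp2, Nlrp4a, Nlrp4b, Nlrp9a and Nlrp9c were listed at 0 in all 14 blastocysts. None of 10 housekeeping genes was listed at 0 in any blastocyst (lowest value 46.6 FPKM). Set side by side, Nlrp4c had mean levels of 10.4, 11.0 and 4.44 FPKM in WT zygotes, late 2-cell embryos and blastocysts, and 8.94, 8 and 8.16 FPKM in R442Q embryos. The tables of the stages were normalised separately, and blastocysts also differ by the inhibitor, so this order was not tested. Summed over all genes, FPKM came to 669904 to 687863 in WT and 677067 to 686416 in R442Q zygotes. In blastocysts the sums were 979070 to 1164489 (WT) and 1051017 to 1156313 (R442Q), so like FPKM are not like parts of a library across stages. In a blastocyst, a library of many cells, fewer cells that hold a transcript and less RNA per cell cannot be told apart.

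**Figure D4:**
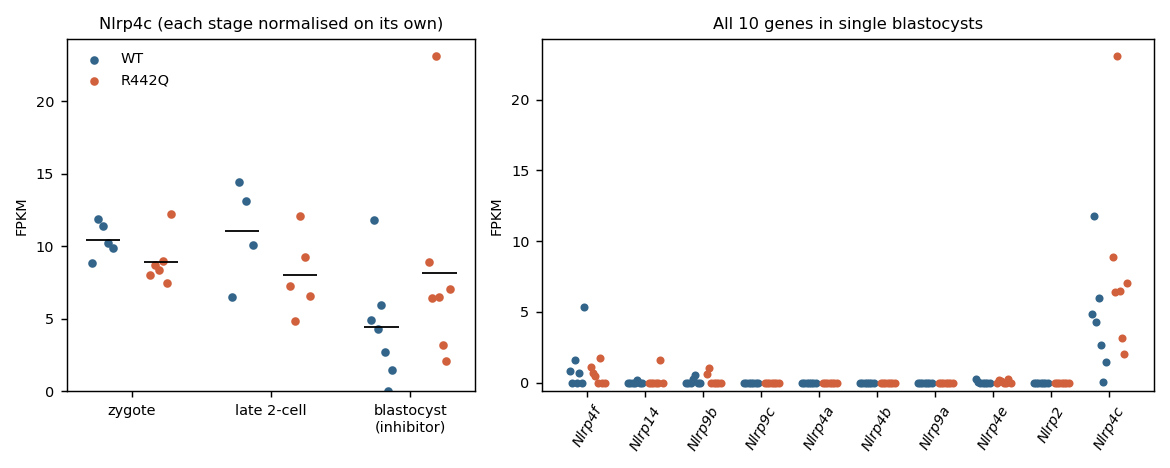
FPKM per embryo of Nlrp4c at the 3 stages (left) and of all 10 genes in blastocysts (right), with WT in blue, R442Q in orange and, on the left, lines at group means. Nlrp4c lies between 0.02 and 23.1 FPKM in blastocysts, while 5 of the other genes are at 0 in every embryo.

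Within groups, the levels of the 10 genes tended to rise and fall together over embryos. With the 4 group means subtracted, the median Pearson r between pairs of the 10 genes was 0.29 in zygotes (n = 11, 45 pairs, 35 above 0) and 0.43 in late 2-cell embryos (n = 9, 42 above 0). These are descriptions, since the values of an embryo share its library, depth and scaling. Pairs of other genes were not computed, so the medians cannot be read as particular to the 10. Nlrp9a and Nlrp9c, the pair with near-identical upstream sequence, had r = 0.90 in late 2-cell embryos and 0.59 in zygotes, and 2.3% of the 50-base stretches of Nlrp9a also occur in Nlrp9c. Such values were not particular to this pair: Nlrp4e and Nlrp14 had r = 0.91 in late 2-cell embryos, and in zygotes Nlrp2 and Nlrp14 had 0.89 and Nlrp9b and Nlrp9c 0.73. Nlrp4b and Nlrp14, which share no 50-base stretch, had r = 0.79 in zygotes. Against the mean of the other 9 genes, Nlrp9c had the highest r (0.81, n = 20) and Nlrp4c the lowest (0.22). The 5 genes outside the listed families whose levels were most like the mean of the 10 over the 20 early embryos were Gm36480, Arhgap26 and Pla2g4c (each r = 0.90), Bmp15 (0.89) and Gm26558 (0.88). Of the maternal complex core, Ooep had r = 0.72 and Padi6 0.03.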

How the data were processed

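Single-embryo cDNA was made with SMART-seq2, cut with Tn5 and sequenced on a HiSeq X-10, per the labels' protocols. RSEM and mm10 are named in the submitters' processing notes, with no version. The authors deposited estimated counts per gene symbol for zygotes and late 2-cell embryos, not normalised, of which 75.4% and 71.7% of values above 0 were whole. The authors deposited FPKM, scaled to transcript length and library size, for all 3 stages. Annotation and strand use are not given in the sources used here.

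Counts were rounded and tested per stage with edgeR 4.0.16 in R 4.3.3 (quasi-likelihood, trimmed mean of M values, filterByExpr with a minimum count of 10). A model of 4 groups tested stage changes and their difference. Blastocysts were tested with limma 3.58.1 on log2(FPKM + 1) for genes at 1 FPKM or more in at least 7 embryos. P-values were Benjamini-Hochberg adjusted over all genes tested, with a threshold of 0.05, and SE is the log2 change divided by the square root of the test's F. DESeq2 1.42.0 was an alternative. The script was tested on simulated data. No 2 zygote or late 2-cell libraries of a group agreed within sampling noise, and blastocysts, with no counts, were not checked for this. Positions, overlaps and 50-base stretches come from GENCODE M21, which held 98.4% of the early and 92.1% of the blastocyst symbols. The named genes were all 10 members, the 5 genes most like their mean, and up to 3 per list and comparison. Other genes (Chek1, cumulus markers, Padi6, genes that share sequence such as Nlrp4g, and the like) were named outside this rule, after values were seen. Members and lists were chosen with earlier results of these data known.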

Additional observations from a re-analysis of the deposited data

Results flagged for a closer look

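In 10 of 50 groups 1 embryo stood apart from the rest of its group. Chance gives about 1 in 20 for continuous values, but this rate does not apply to blastocyst groups that are almost all at 0, where a single value above 0 stands apart by construction. In zygotes these were Nlrp4c in R442Q zygote 6 (40.7 CPM, next 29.8), Nlrp4f in WT zygote 3 (2175 CPM, next 1683) and Nlrp9a in R442Q zygote 1 (174 CPM, next 218). In late 2-cell embryos they were Nlrp4b in R442Q embryo 1 (54.5 CPM, next 21.1) and Nlrp9c in WT embryo 3 (187 CPM, next 121). In blastocysts they were Nlrp4c in R442Q embryo 3 (23.1 FPKM, next 8.89), Nlrp4f in WT embryo 7 (5.32 FPKM, next 1.62), Nlrp4e in WT embryo 1 (0.24 FPKM, next 0.02), and Nlrp14 in WT embryo 5 (0.18 FPKM) and R442Q embryo 6 (1.61 FPKM), the others being listed at 0.

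The genotype effect differed between stages in the edgeR test of both stages for Nlrp14 (1.75 higher at the late 2-cell stage on the log2 scale, adjusted p = 0.00615), Nlrp4b (1.64, 0.0413), Nlrp9b (1.78, 0.0493) and Nlrp9c (0.84, 0.0444).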

How the results depend on the processing

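The 9 falls from zygote to late 2-cell kept direction under every alternative run, and all but that of Nlrp2 in R442Q embryos kept their call. The fit of both stages called 1 of the 10 genes in zygotes, where it called 270 of 16199 genes. In late 2-cell embryos it called 2 of the 10 and 2507 of 16199 genes. DESeq2 called 1 of the 10 there and 1664 of 13883 genes. For the difference between stages, leaving out 1 embryo gave 1 to 5 calls among the 10. Over all genes it gave from 1089 of 16099 (without WT zygote 2) to 2311 of 15809 (without R442Q late 2-cell embryo 3). Replicate numbers did not pair embryos: same-numbered embryos correlated at -0.0568 to 0.0621 in zygotes, -0.144 to 0.206 in late 2-cell embryos and -0.168 to 0.204 in blastocysts, and not every embryo correlated best with its own number. With a replicate block 2 of the 10, Nlrp14 and Nlrp4b, were called for the difference between stages, as were 1085 of 16199 genes (273 higher, 812 lower). Nlrp9b (1.68, edgeR adjusted p = 0.0941) and Nlrp9c (0.91, 0.0728) lost their calls. With the block Nlrp2 was called in zygotes (-0.90, edgeR adjusted p = 0.0291), as were 1217 of 12420 genes. Its fall in R442Q embryos was not called (-0.64, edgeR adjusted p = 0.132), and Nlrp4e turned to 0.15 in late 2-cell embryos.

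Signs turned only in estimates that never passed the threshold. In zygotes, Nlrp4f was -0.04 with limma on FPKM and Nlrp9c 0.01 in the fit of both stages. In late 2-cell embryos Nlrp4f was -0.01 with relative log expression or DESeq2, -0.06 with no filter, -0.15 with length and GC trend removed and -0.05 in the fit of both stages. Its difference between stages was 0.04 with relative log expression or DESeq2. Leaving out 1 embryo gave, in zygotes, -0.08 to 0.04 for Nlrp4a and -0.06 to 0.01 for Nlrp9c; in late 2-cell embryos, -0.06 to 0.46 for Nlrp4a, -0.75 to 0.38 for Nlrp4e and -0.20 to 0.49 for Nlrp4f; for the WT stage change, -0.25 to 0.15 for Nlrp4c; for the difference between stages, -0.95 to 0.22 for Nlrp4e and -0.29 to 0.48 for Nlrp4f. The causes were not tested.

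Counts over all genes also moved. In zygotes 1643 genes were called (783 higher, 860 lower), against 270 in the fit of both stages (197 higher, 73 lower) and 1642 with limma on FPKM (411 higher, 1231 lower). In late 2-cell embryos the count was 580 (170 higher, 410 lower), against 652 with limma on FPKM (264 higher, 388 lower), 889 with no filter, 1664 with DESeq2 (736 higher, 928 lower), 2507 in the fit of both stages, 168 with length and GC trend removed, 58 with the block and 142 (without WT embryo 2) to 891 (without R442Q embryo 3) without 1 embryo. For the difference between stages it was 1639, against 1085 with the block, 1089 without WT zygote 2 and, with DESeq2, 2446 (1136 higher, 1310 lower). In blastocysts it was 1, against 3 with scaled FPKM and 0 to 30 without 1 embryo. The blastocyst depth in counts is unknown.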
